A study of Homo sapiens with 2 samples.

Results

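Antisense RNA genes were compared between 2 cultured lines derived from MCF-10A, human mammary epithelial cells that form an established line and are not tumorigenic. In one line the cells stably expressed EGFP alone (the EGFP vector) and in the other they stably expressed a fusion of EGFP with ARHGAP4, which activates the GTPase of small G proteins (EGFP-ARHGAP4), so EGFP was present in both. The labels name no promoter, clone or culture number for either line. Each was hybridised to 1 Affymetrix whole-transcript array, so no difference below could be set against variation between cultures and none carries a p-value or an SD between replicates. Antisense genes were taken as those whose annotated symbol ends in -AS followed by 1 digit. Of 479 such genes in the table, 78 reached a log2 expression value of 4.0 in at least 1 array and are the antisense genes described here, out of 14812 named genes in all. They were thus chosen by their symbol and selected on the higher of their 2 measured values. All 78 are classed as long non-coding RNA in the RefSeq gene table. They lie on 23 chromosomes. The 1 on chromosome Y is counted below, but its values are not shown.

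Antisense RNAs are transcribed from the strand opposite a protein-coding gene and carry that gene's symbol, here called the sense gene. Some begin next to the start of the sense gene and run away from it, from a promoter region that serves both strands. Others begin inside or beyond the sense gene and run across part of it. Several are known to act on the chromatin of the sense gene or on microRNAs and proteins elsewhere in the cell, but most have no known function, and many such RNAs are short-lived because the nuclear exosome degrades them. Per the labels' protocols the labelled material was sense-strand cDNA, a design that keeps the strand of the RNA. The array design was not given, so the strand and the transcript part that each feature covers could not be checked. Where differences are compared below, a strand stands for the values of the gene annotated to it.

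The starts of 61 of the 78 antisense genes and of their sense genes were both found in the RefSeq promoter table (GRCh38.p14). In 28 of these pairs the closest starts on opposite strands lay within 1000 bases, 13 with the antisense start upstream of the sense start and 15 with it inside the sense gene or beyond. In 12 the promoter windows, each from 250 bases before to 50 bases after a start, shared bases. The windows of 6 antisense genes are shown, 5′ to 3′ on the antisense strand. SVIL-AS1, FOXD2-AS1 and WAC-AS1 had the lowest differences between the arrays. ZNF674-AS1, ZNF566-AS1 and URB1-AS1 were picked because they share a promoter region with a sense gene whose difference was not like theirs. WAC-AS1 also shares bases with the window of WAC, whose difference was like its own. Capitals mark the bases that also lie in the window of the sense gene, and windows without capitals share none.
SVIL-AS1: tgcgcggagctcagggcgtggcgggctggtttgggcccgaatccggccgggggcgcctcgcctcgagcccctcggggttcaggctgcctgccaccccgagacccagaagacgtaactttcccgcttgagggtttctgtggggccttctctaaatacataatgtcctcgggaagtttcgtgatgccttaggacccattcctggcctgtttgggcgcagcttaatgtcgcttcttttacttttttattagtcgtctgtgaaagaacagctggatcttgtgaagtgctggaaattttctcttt
WAC-AS1: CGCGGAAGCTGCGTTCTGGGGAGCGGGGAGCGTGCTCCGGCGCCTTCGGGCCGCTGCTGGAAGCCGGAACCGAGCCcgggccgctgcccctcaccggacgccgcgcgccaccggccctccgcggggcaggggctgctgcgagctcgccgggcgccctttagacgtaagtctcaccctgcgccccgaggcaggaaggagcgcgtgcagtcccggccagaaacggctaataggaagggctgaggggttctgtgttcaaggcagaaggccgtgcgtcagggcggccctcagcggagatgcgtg
FOXD2-AS1: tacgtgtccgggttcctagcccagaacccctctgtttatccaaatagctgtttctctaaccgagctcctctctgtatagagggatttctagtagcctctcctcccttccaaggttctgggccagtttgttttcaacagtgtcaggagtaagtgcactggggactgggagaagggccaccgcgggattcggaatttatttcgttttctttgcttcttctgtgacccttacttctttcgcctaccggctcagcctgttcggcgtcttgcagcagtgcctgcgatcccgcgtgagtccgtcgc
ZNF674-AS1: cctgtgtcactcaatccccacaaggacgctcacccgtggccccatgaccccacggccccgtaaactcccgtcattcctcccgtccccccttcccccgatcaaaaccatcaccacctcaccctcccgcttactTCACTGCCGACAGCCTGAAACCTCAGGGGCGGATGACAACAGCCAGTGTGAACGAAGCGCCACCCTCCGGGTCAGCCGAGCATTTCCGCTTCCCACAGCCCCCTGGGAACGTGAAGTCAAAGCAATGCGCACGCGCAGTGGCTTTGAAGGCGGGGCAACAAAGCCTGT
ZNF566-AS1: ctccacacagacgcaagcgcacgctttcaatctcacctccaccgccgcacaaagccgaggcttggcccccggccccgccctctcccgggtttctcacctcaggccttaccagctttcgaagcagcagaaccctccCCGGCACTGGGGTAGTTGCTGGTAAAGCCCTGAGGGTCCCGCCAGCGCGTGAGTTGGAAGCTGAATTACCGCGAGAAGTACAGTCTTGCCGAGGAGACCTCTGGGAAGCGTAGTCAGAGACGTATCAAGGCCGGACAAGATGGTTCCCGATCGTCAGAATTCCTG
URB1-AS1: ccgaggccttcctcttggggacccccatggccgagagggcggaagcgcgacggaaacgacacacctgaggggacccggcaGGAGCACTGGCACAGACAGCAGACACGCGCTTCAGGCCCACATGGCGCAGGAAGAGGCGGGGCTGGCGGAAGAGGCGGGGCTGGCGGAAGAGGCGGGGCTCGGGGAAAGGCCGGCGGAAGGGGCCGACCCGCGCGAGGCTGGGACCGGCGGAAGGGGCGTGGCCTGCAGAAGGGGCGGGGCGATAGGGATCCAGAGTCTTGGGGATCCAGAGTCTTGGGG
The windows lie at chr10:29409993-29410292, plus strand; chr10:28532305-28532604, minus strand; and chr1:47434592-47434891, minus strand. The other windows lie at chrX:46545240-46545539, plus strand; chr19:36489377-36489676, plus strand; and chr21:32392883-32393182, plus strand. The start of ZNF566-AS1 is 66 bases upstream of the closest start of ZNF566, and the windows share 165 bases. For ZNF674-AS1 the distance is 69 bases with 168 shared, for URB1-AS1 121 bases with 220 shared, and for WAC-AS1 425 bases with 76 shared. FOXD2-AS1 starts 3403 bases upstream of FOXD2. SVIL-AS1 starts 224728 bases downstream of the closest start of SVIL, on the other strand. The GC box letters GGGCGG, searched on both strands, were present in the windows of WAC-AS1, ZNF674-AS1, ZNF566-AS1 and URB1-AS1. None of the 6 windows held CCAAT or TATAAA on either strand. Of the 67 antisense genes with a window in the table, counting the first window of each, 35 held GGGCGG (52.2%), against 45.0% of all 35116 windows. CCAAT was in 27 (40.3%, against 34.6%) and TATAAA in 4 (5.97%, against 11.5%). The median number of CG dinucleotides per window was 23 for these antisense genes and 14 for all windows. These are letters in a window and were not tested as sites.

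ARHGAP4 had a log2 value of 4.49 with the EGFP vector and of 6.68 with EGFP-ARHGAP4, a log2 difference of 2.19 in the direction of the labels. The median over the 44629 features was 2.88 in both arrays. Of the basal epithelial markers KRT5 was at 8.33 and 8.34 and KRT14 at 9.21 and 6.96. Of the 6 luminal markers 3 reached 4.0. The fibroblast genes DCN and LUM and the endothelial gene VWF lay below 3 in both arrays. Of the blood cell markers, CD14 was at 5.84 and 5.48, and LAPTM5 was at 4.45 and 6.50. The part of other cell types in the antisense values was not tested.

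Antisense genes had low log2 values on these arrays beside all genes, though levels of different features have no common scale. At the smaller of the difference limits given below, the share of antisense genes that were lower was near that of all genes. The count that were higher at that limit changed with the scaling of the arrays. The median log2 value of the 78 was 4.33 with the EGFP vector and 4.30 with EGFP-ARHGAP4. That of all genes that reached 4.0 in an array was 5.87 and 5.77. Without the level rule the medians were 2.76 and 2.75 for the 479 antisense genes and 4.03 and 4.01 for all genes. Only 16.3% of the 479 antisense genes reached 4.0 in an array, against 53.4% of the other 14333 genes. Among those that did, 24.4% of the antisense genes reached 5 in an array, against 74.5% of the other genes. Just above the level stood ZNF674-AS1 (higher value 4.003), VPS13A-AS1 (4.02), STARD7-AS1 (4.02), TNS2-AS1 (4.03) and JMJD1C-AS1 (4.03). Just below it stood GAS5-AS1 (3.995), RNF213-AS1 (3.98), ZSWIM8-AS1 (3.98), MZF1-AS1 (3.98) and TENM3-AS1 (3.96). The level rule used the higher of the 2 values, so a gene that passed in 1 array only had to differ. That was so for 20 of the 78: 8 passed in the EGFP vector array alone and 12 in the EGFP-ARHGAP4 array alone, while 58 passed in both. Among all 7735 genes at this level, 294 passed in the EGFP vector array alone, 274 in the EGFP-ARHGAP4 array alone and 7167 in both.

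**Figure D1:**
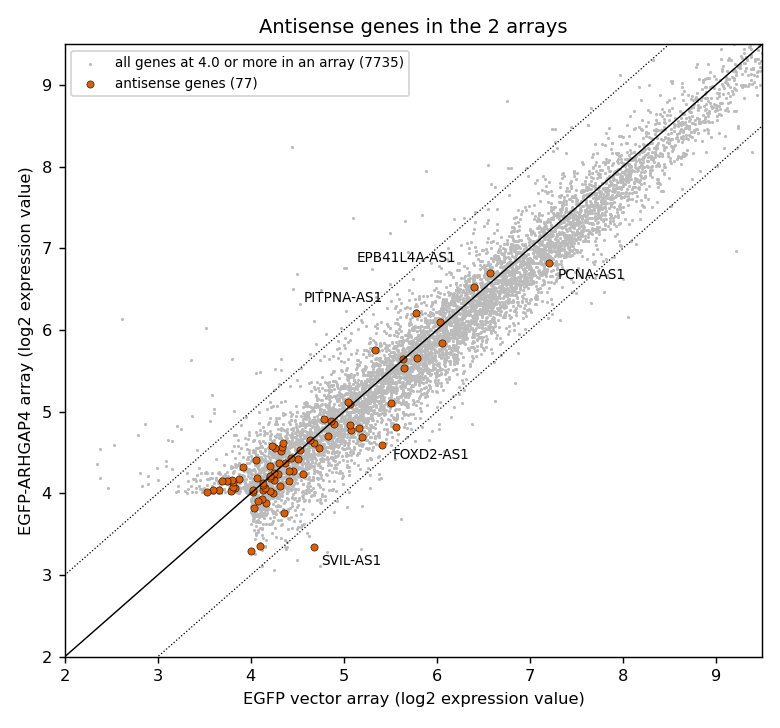
Each point is a gene, placed by its log2 expression value in the EGFP vector array (x axis) and in the EGFP-ARHGAP4 array (y axis). Orange points are 77 antisense genes and grey points the 7735 genes at 4.0 or more in an array. Grey points with the highest values lie beyond the axes. The solid line marks equal values and the dotted lines a log2 difference of 1; SVIL-AS1 is the orange point beyond a dotted line, and most antisense genes lie between 3.5 and 5.5.

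Each difference is the log2 value with EGFP-ARHGAP4 minus that with the EGFP vector, and where 2 values of a gene are given the EGFP vector comes first. At 2-fold, 1 of the 78 antisense genes was lower and none was higher, against 0.789% lower and 0.995% higher among all 7735 genes at this level. At a difference of 0.5, 7 of 78 were lower, a share near that of all genes (9.76%). None of the 78 was higher by 0.5, against 5.2% of all genes; this count became 3 after quantile normalization of the arrays, 6 after centring on the median gene and 2 after removal of the level trend. Over genes limited to the range of the antisense genes, with a higher value of at most 7.202, the shares were 9.84% lower and 5.26% higher. Of the 58 antisense genes that passed the level in both arrays 3 were lower by 0.5 and none higher, against 9.0% and 4.09% of all genes that did.

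The median difference of the 78 antisense genes was -0.0057, with quartiles of -0.21 and 0.18, and that of all genes at this level was -0.099. The antisense median turned positive under each scaling of the arrays, to 0.023 after quantile normalization, 0.093 after centring and 0.018 after removal of the level trend, where all genes had -0.015, 0 and -0.0011. The distance between the 2 medians therefore ranged from 0.019 to 0.093. Of the 78, 32 were above 0, 39 below and 7 exactly at 0, and 71 (91.0%) lay within 0.5 either way. Of all 7735 genes at this level, 2847 were above 0, 4736 below and 152 exactly at 0, and 85.0% lay within 0.5.

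**Figure D2:**
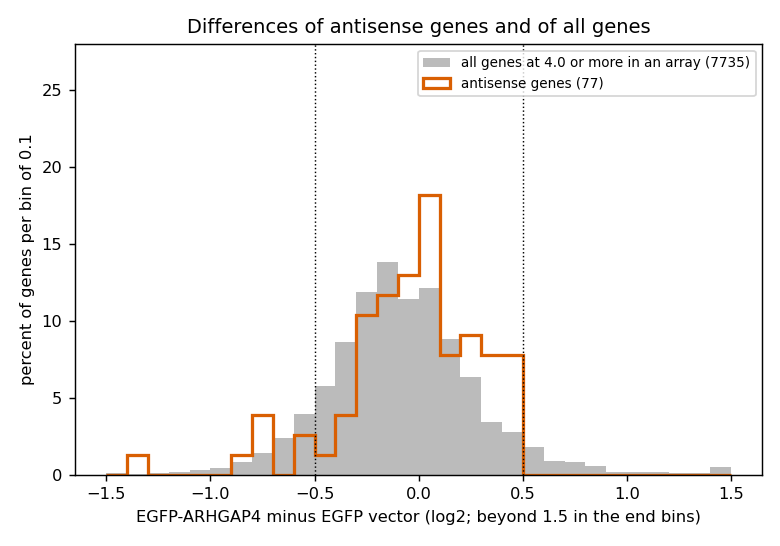
The percentage of genes per bin of 0.1 in the log2 difference (EGFP-ARHGAP4 minus EGFP vector) is shown for 77 antisense genes (orange outline) and for all 7735 genes at 4.0 or more in an array (grey); the end bins hold the 38 genes beyond 1.5, genes at exactly 0 count in the bin above 0, and dotted lines mark 0.5 either way. The antisense genes end at 0.49 on the high side and reach -1.34 on the low side.

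The lowest difference was that of SVIL-AS1, which runs opposite SVIL, the gene of the actin-binding membrane protein supervillin. SVIL-AS1 stood at 4.68 with the EGFP vector and at 3.34 with EGFP-ARHGAP4. This difference was -1.34, or 2.53-fold lower, and since the second value lay below 4.0, where differences narrow towards background, the fold is approximate. FOXD2-AS1, next to a forkhead transcription factor gene, stood at 5.41 and 4.60, a difference of -0.81. It was above 4.0 in both arrays. WAC-AS1, beside the gene of an adaptor protein linked to histone ubiquitination, stood at 5.56 and 4.82, 1.68-fold lower.

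PSMD6-AS2, opposite a gene of the proteasome regulatory particle, stood at 4.10 and 3.36. ZNF674-AS1, beside a zinc finger gene, stood at 4.003 and 3.29, and RHPN1-AS1 at 4.36 and 3.76. All 3 passed the level in the EGFP vector array alone. THAP9-AS1, beside a gene related to a transposase, stood at 5.19 and 4.69, a difference of -0.506. Smaller differences completed the 12 lowest. TMPO-AS1, opposite the gene of a nuclear lamina protein, stood at 5.50 and 5.10. PCNA-AS1, opposite the gene of the DNA polymerase clamp, had the highest mean level of all 78 and stood at 7.202 and 6.82. HIF1A-AS2 was at -0.37, RAB11B-AS1 at -0.32 and MED4-AS1 at -0.30.

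On the high side no antisense gene reached 0.5, and most of the 12 highest lay close to 4.0. STARD7-AS1, opposite a lipid transfer protein gene, stood at 3.53 and 4.02, a difference of 0.49. SHANK2-AS1 and GAS6-AS1 each differed by 0.45. GAS6-AS1, named after the ligand of the TAM receptor kinases, rested on 2 features that differed by 0.67 and 0.23, so its value depends on which is taken. PITPNA-AS1, opposite a phosphatidylinositol transfer protein gene, stood at 5.77 and 6.21, a difference of 0.44. SH3PXD2A-AS1, opposite the gene of a podosome scaffold protein, stood at 5.33 and 5.76, a difference of 0.42. The last 2 were above 5 in both arrays. The remaining 7, UMODL1-AS1, SPEN-AS1, TNFRSF14-AS1, INKA2-AS1, ALOX12-AS1, LHX4-AS1 and NUTM2A-AS1, differed by between 0.33 and 0.41, and 5 of them were below 4.0 in the EGFP vector array.

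**Figure D3:**
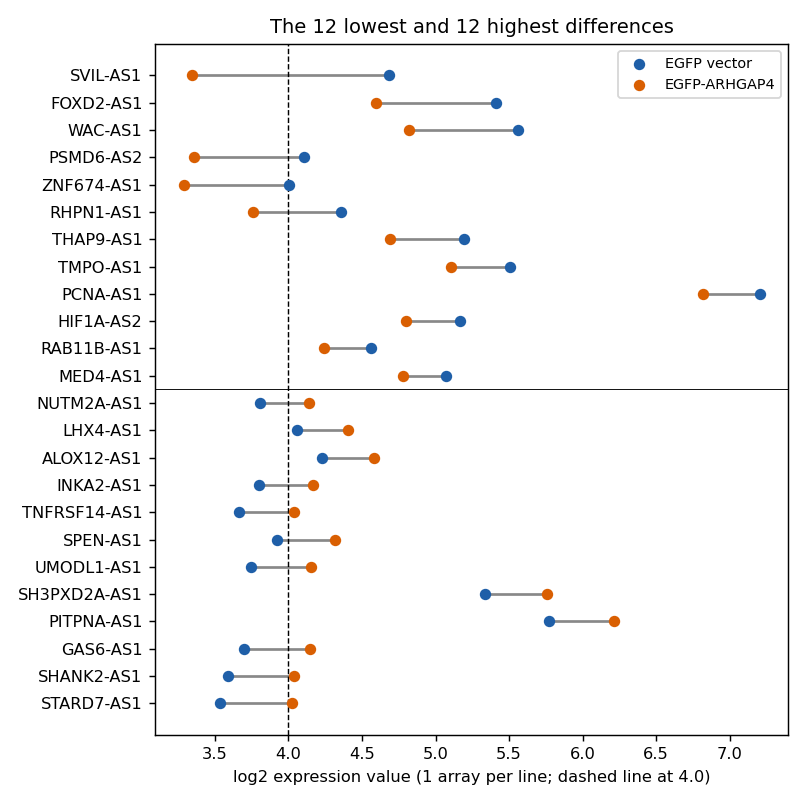
For the 12 antisense genes with the lowest differences (top) and the 12 with the highest (bottom), the log2 expression value in the EGFP vector array (blue) and the EGFP-ARHGAP4 array (orange) are joined by a line, 1 array each. The dashed line marks 4.0; the lowest genes span the range from 3.29 to 7.202, whereas of the highest only SH3PXD2A-AS1 and PITPNA-AS1 lie above 5.

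The antisense genes with the highest mean level differed by less than 0.5. After PCNA-AS1 they were EPB41L4A-AS1 (6.57 and 6.70), PCBP3-AS1 (6.40 and 6.53), PRRT3-AS1 (6.03 and 6.10) and PITPNA-AS1. Of antisense RNAs that earlier work has described, 40 were listed, 24 were measured and 8 reached the level, with a median difference of -0.30. All genes at the level had a median of -0.099. Of the 8, SVIL-AS1 and THAP9-AS1 were lower by 0.5 and none was higher, against 9.76% and 5.2% of all genes. FGD5-AS1 was at -0.13, MNX1-AS1 at -0.23 and ARHGAP5-AS1, beside a gene of the family of ARHGAP4, at 0.13. ZEB1-AS1, GATA3-AS1, CDKN2B-AS1, AFAP1-AS1 and EGFR-AS1 were among the 16 that stayed below 4.0 in both arrays.

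The 401 antisense genes below 4.0 in both arrays had a median difference of 0. Of these, 6 were higher by 0.5 and 8 lower by 0.5, against 3.21% and 2.87% of all genes below the level.

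In 7 of the 78 (8.97%) the 2 arrays held the same value to the last digit, against 1.97% of all genes at this level. They were DDX11-AS1, MTUS2-AS1, NIFK-AS1, THUMPD3-AS1, TMEM147-AS1, VPS13A-AS1 and ZBTB11-AS1, at values from 4.02 to 5.64. For these genes the arrays give no direction. The sense genes of 6 of them were measured, and none of those 6 held the same value in both arrays; VPS13A, a lipid transfer protein gene, was at -0.56 while VPS13A-AS1 was at 0.

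The sense gene was measured for 52 of the 78 antisense genes. Differences, not levels, were compared, since levels of different features have no common scale. In 44 pairs both genes had a sign: 10 pairs were higher in both, 13 lower in both, 10 had the antisense gene higher and the sense gene lower, and 11 the reverse. Same and opposite signs were thus about equally frequent, 23 against 21; after centring or removal of the level trend 30 of 52 pairs had the same sign. In 37 pairs the sense gene also reached 4.0 in an array, and 18 of the 32 with signs on both sides agreed. Across these 37 pairs the differences had a Pearson correlation of 0.49 and a Spearman correlation of 0.31, given as a description since all points share the same 2 arrays. Without the SVIL and WAC pairs, both in the first part of chromosome 10 (below), the Pearson correlation was 0.23 over 35 pairs.

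Only the SVIL and WAC pairs were lower by 0.5 on both strands, and no pair was higher by 0.5 on both. SVIL stood at 5.25 and 4.41, a difference of -0.85, and WAC at 6.36 and 5.56, a difference of -0.80. The WAC strands thus differed from each other by 0.054, and the SVIL strands by -0.49 (antisense minus sense difference). The pairs of 2 proliferation-linked genes went the same way with smaller values on the antisense strand. TMPO stood at 7.91 and 7.16, a difference of -0.75 against -0.40 for TMPO-AS1, and PCNA at 9.62 and 9.16, a difference of -0.46 against -0.38 for PCNA-AS1. On the high side GAS6 stood at 7.34 and 7.91, a difference of 0.56 beside 0.45 for GAS6-AS1. TNS2, a tensin gene of cell-matrix adhesions, differed by 0.60 beside 0.24 for TNS2-AS1. GAS6-AS1 and TNS2-AS1 passed the level in the EGFP-ARHGAP4 array alone, so the level rule fixed the sign of both antisense differences.

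Among the 37 pairs with both genes at the level, 34 had strands within 0.5 of each other. The widest gap was in the FOXD2 pair, where FOXD2 stood at 3.85 and 4.08, a difference of 0.24 against -0.81 for FOXD2-AS1. STARD7 stood at 9.40 and 9.19, a difference of -0.20 against 0.49 for STARD7-AS1. STARD7-AS1 passed the level in the EGFP-ARHGAP4 array alone, so the level rule fixed the sign of its difference. The VPS13A pair differed by 0.56. The next 5 were the SVIL, ASMTL, DHRS4, VPS9D1 and PRR7 pairs, with gaps between 0.38 and 0.49 in size. VPS9D1-AS1 stood at 6.06 and 5.84 while VPS9D1 stood at 4.35 and 4.58. In DHRS4 the antisense difference, -0.011, changed sign under each scaling, and the sense difference was 0.44.

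**Figure D4:**
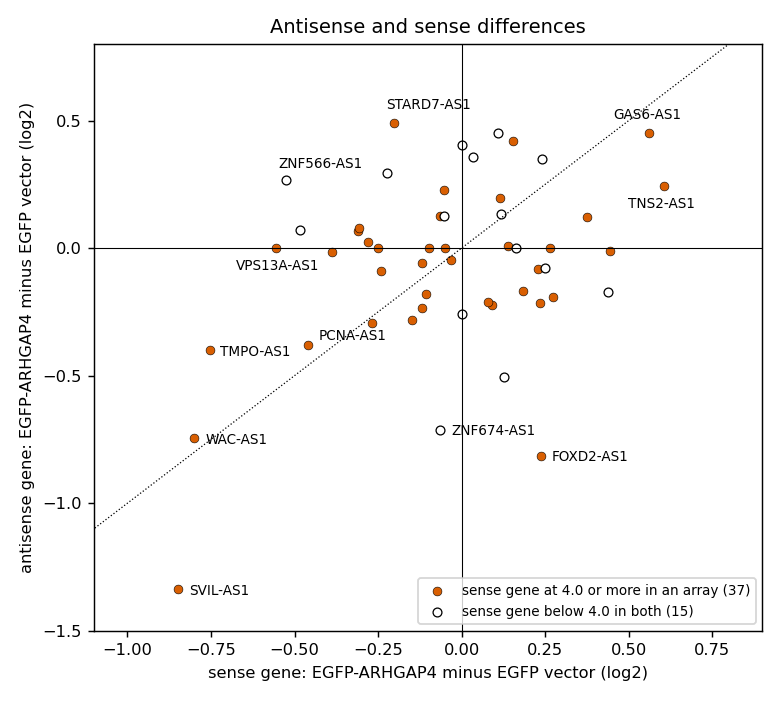
Each point is a pair, placed by the log2 difference (EGFP-ARHGAP4 minus EGFP vector) of the sense gene (x axis) and of the antisense gene (y axis); filled points are the 37 pairs whose sense gene reached 4.0 in an array and open points the 15 whose sense gene did not. The dotted line marks equal differences; SVIL-AS1 and WAC-AS1 lie at the lower left, FOXD2-AS1 at the lower right and STARD7-AS1 at the upper left.

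Pairs whose starts lay within 1000 bases of each other were set beside the pairs with starts further apart. In 16 of the near pairs both genes were measured, and of 13 with signs 5 had the same sign and 8 opposite signs. Of 23 measured pairs with starts further apart, 19 had signs and 13 of those had the same sign. The Spearman correlation was 0.021 over the 16 and 0.26 over the 23; the difference between these groups was not tested. Of the pairs with shared promoter windows printed above, WAC-AS1 and WAC had like differences, at -0.75 and -0.80. The ZNF674, ZNF566 and URB1 pairs were picked for their unlike differences, so they do not stand for all pairs with shared windows. ZNF674-AS1 was at -0.71 and ZNF674 at -0.063. ZNF566-AS1 was at 0.27 and ZNF566 at -0.53, both sense genes lying below 4.0 in each array. ZNF674-AS1 passed the level in the EGFP vector array alone and ZNF566-AS1 in the EGFP-ARHGAP4 array alone. The level rule thus fixed the sign of both antisense differences. URB1-AS1 stood at 4.86 and 4.88 while URB1, a gene of ribosome biogenesis, stood at 6.51 and 6.22.

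The antisense genes of chromosome 10 were set beside the other genes in 2 parts of that chromosome. Along the gene order, the 69 other genes at the level from the start of the chromosome to ZNF37A had a median difference of -0.82, and the 232 from LINC00999 to the end had a median of 0.27. In the first part, 2 of 12 antisense genes reached the level, SVIL-AS1 and WAC-AS1. The 10 flanking genes of each had a median of -0.92. Most of these flanking genes were common to both, so the 2 medians were not independent. The difference of WAC-AS1 was thus smaller in size than the median of its neighbours and that of SVIL-AS1 larger. Among the 10 antisense genes of this part below the level, PRKCQ-AS1 stood at 3.92 and 3.19 and PITRM1-AS1 at 3.91 and 3.40, and the others ranged from -0.34 to 0.47. ZEB1-AS1 was at -0.22. In this part the 55 other genes below the level had a median of -0.014. All 12 antisense genes of this part had a median of -0.047, with 6 above 0 and 6 below. Of the 2 at the level, SVIL-AS1 passed in the EGFP vector array alone.

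In the second part 5 of 27 antisense genes reached the level, with a median of 0.30. All 27 had a median of 0.10, with 15 above 0 and 12 below. The 5 at the level were JMJD1C-AS1 at -0.21, C10orf95-AS1 at 0.0086, ZMIZ1-AS1 at 0.30, NUTM2A-AS1 at 0.33 and SH3PXD2A-AS1 at 0.42. The neighbours of the last 3 had medians of 0.28, 0.32 and 0.31. ZMIZ1-AS1 and NUTM2A-AS1 passed in the EGFP-ARHGAP4 array alone and JMJD1C-AS1 in the EGFP vector array alone. For those genes the level rule fixed the sign of the difference. C10orf95-AS1 rested on 2 features of opposite sign, at -0.075 and 0.093. The 22 below the level ranged from -0.43 to 0.54. Over all 78 antisense genes, the difference and the median of the 10 flanking genes at the level, without the sense gene, had a Spearman correlation of 0.24, or 0.18 without SVIL-AS1 and WAC-AS1. Leaving out chromosome 10 removed the single antisense gene at 2-fold and left 5 of 71 lower by 0.5.

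**Figure D5:**
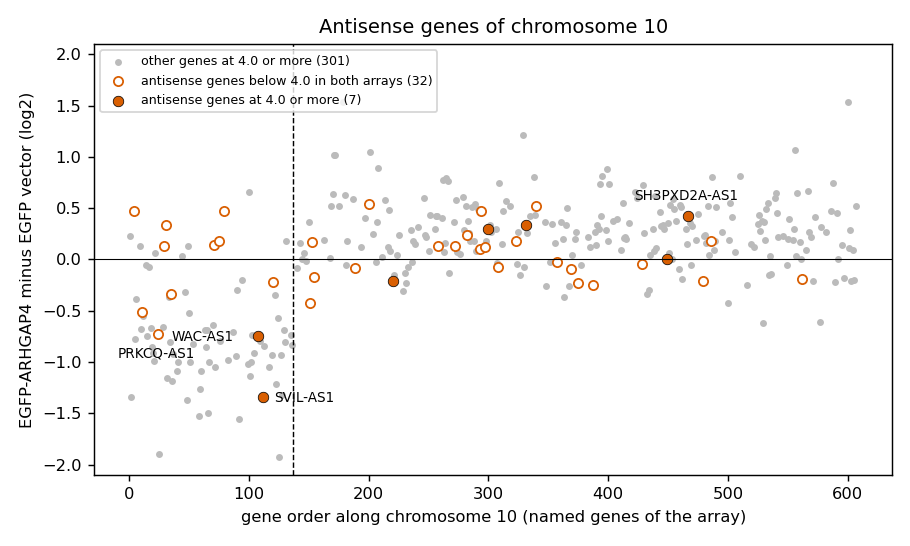
The log2 difference (EGFP-ARHGAP4 minus EGFP vector) of genes of chromosome 10 is plotted against their order along the chromosome; filled orange points are the 7 antisense genes at 4.0 or more in an array, open orange points the 32 below 4.0, and grey points the 301 other genes at 4.0 or more, 2 of which lie beyond the axis. The dashed line follows ZNF37A; to its left the grey points centre on -0.82 with SVIL-AS1 and WAC-AS1 among them, and to its right on 0.27.

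Genes that degrade or process such RNAs had small differences in most cases. Of 40 listed genes of the nuclear exosome, its adaptors, exonucleases, decapping and nonsense-mediated decay, 26 were measured, all at the level, with a median of -0.23. All genes at the level had a median of -0.099. The median of the decay genes was -0.13 after quantile normalization, -0.13 after centring and -0.12 after loess. Of the 26, 22 were below 0 and 4 above, a larger share below 0 than among all 7735 genes (4736 below, 2847 above). Of the 26, 4 were lower by 0.5 and none higher, against 9.76% and 5.2% of all genes. The nonsense-mediated decay factor UPF2, in the first part of chromosome 10, stood at 5.95 and 4.77. The exosome core genes EXOSC9 and EXOSC8 stood at 6.28 and 5.57 and at 7.35 and 6.78. DIS3L, a cytoplasmic exosome nuclease, was at -0.53. On the other side EXOSC5 was at 0.45, EXOSC1 at 0.29 and the helicase gene UPF1 at 0.055. Of 34 listed genes of chromatin silencing and RNA processing partners, 20 were measured, with a median of -0.22, which became -0.12, -0.12 and -0.11 under the same scalings. Of the 20, 3 were lower by 0.5 and none higher, against 9.76% and 5.2% of all genes. The 3 were the DNA methyltransferase genes DNMT3B (-0.81) and DNMT3A (-0.502), both near the level limit, and the histone methyltransferase gene EZH2 (7.06 and 6.38). DNMT3B and DNMT3A passed the level in the EGFP vector array alone, so the level rule fixed the sign of their differences. MALAT1, an abundant nuclear non-coding RNA, was at 0.31, EZH1 at 0.089 and RING1 at 0.072.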

How the data were processed

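The authors deposited normalized log2 values, 1 for each feature and array. Their software, summarisation and normalization are not stated in the labels or the table. The log2 base was read from the range of the values. Gene symbols came from the platform annotation and named 15835 of 44629 features. All of these matched the RefSeq gene table (GRCh38.p14) by Entrez identifier, so it was used for chromosome, gene order and class; the array's build is not given. Features of a symbol were averaged, giving 14812 genes; 73 of the 78 antisense genes rest on 1 feature. Starts and windows came from the RefSeq promoter table. The level of 4.0, the symbol pattern, the division of chromosome 10, the lists and the naming rule were chosen with earlier results of these data known. The rule named the 12 highest and 12 lowest differences, the 5 highest levels, genes next to the level limit, chromosome 10, the 8 widest pairs and listed genes. URB1-AS1, ZNF566-AS1, NDUFB2-AS1, SERTAD4-AS1 and the genes at 0 other than VPS13A-AS1 were named after their values were seen. So were all antisense genes below the level other than those next to it and those of chromosome 10. TNS2-AS1 and VPS13A-AS1 fell under the rule by their level. The TNS2 pair was picked out after its values were seen. With 1 array per group no test was made, and the number of arrays limits the precision. Only the recovery of 2-fold differences in genes at 5 or more was tested on simulated data, with and without scaling of the arrays. Software was Python 3.11.15 with statsmodels 0.14.6, numpy 2.4.6, matplotlib 3.10.9 and pandas 2.3.3.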

Additional observations from a re-analysis of the deposited data

How the results depend on the processing

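Alternatives were quantile normalization, centring on the median gene, removal of a loess curve (span 0.3), the feature with the highest mean, other level rules, every symbol ending in -AS, and leaving out chromosome 10. No paired analysis was possible because each group holds 1 array. The count of antisense genes lower by 2-fold, 1 as reported, became 0 when both arrays had to reach 4.0 and without chromosome 10, and 6 at 1.5-fold. The count higher by 0.5, 0 as reported, became 3 after quantile normalization, 6 after centring, 2 after loess, 1 with the highest feature and 6 of 479 with no level rule. The count lower by 0.5, 7 as reported, became 3 with both arrays at 4.0, 4 with the level at 4.5 and 15 with no level rule. The number of pairs of the same sign, 23 of 44 as reported, became 12 of 20 with the level at 4.5 and 139 of 279 with no level rule, and under the other settings it stayed within 1.5 times. The median difference of the antisense genes, -0.0057 as reported, was 0.026 after quantile normalization with the level applied to the normalized values (0.023 over the genes as reported), 0.093 after centring, 0.018 after loess and -0.023 with the highest feature. It was -0.036 with the mean at 4.0, -0.022 with both arrays at 4.0, -0.046 with the level at 4.5, 0 with no level rule and -0.011 without chromosome 10. The median of the RNA decay list, -0.23 as reported, was -0.134 after quantile normalization, -0.13 after centring and -0.116 after loess; that of the silencing list, -0.22 as reported, was -0.121, -0.122 and -0.107. The highest feature moved neither list median by over 1.5 times. The ARHGAP4 difference was 2.19 to 2.29. Of 49 named antisense genes at the level, 1 changed sign under each scaling (DHRS4-AS1) and 1 with the highest feature (C10orf95-AS1); a difference of 0 was not counted as a sign. The scalings moved the median of genes at the level by 0.084 to 0.099. Where counts changed with a scaling, the cause was not tested. Signal near background limits the folds of genes close to 4.0.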

Other observations

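Among the antisense genes below 4.0 in both arrays the lowest differences were those of TFAP2A-AS1, beside a transcription factor gene of mammary epithelium, at 3.84 and 3.11, and of PRKCQ-AS1. AFAP1-AS1, an antisense RNA studied in carcinomas, stood at 3.24 and 2.67, and the sense gene AFAP1, of an actin filament associated protein, differed by -0.32. SPART-AS1 was at -0.52 and SPART at -0.59. The highest were those of NDFIP2-AS1 (1.73 and 2.32) and LCMT1-AS2 (2.11 and 2.69), and FAS-AS1, opposite a death receptor gene, stood at 2.31 and 2.84.

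Differences recurred to the 5th decimal across unrelated features. Of all 44629 features, 31.4% had a difference that was held by more than 10 features. Among genes of 1 feature at the level the share was 7.06%, and among the 73 antisense genes of 1 feature it was 21.9% (16 genes, 7 of them at exactly 0). Within a higher value from 4.0 to 5 the shares were 15.2% of genes and 25.9% of 54 antisense genes. TNS2-AS1, for example, differed by 0.24227, as did 66 features in all, the difference of NDUFB2-AS1 was held by 99 features in all, and that of SERTAD4-AS1 by 47. How the recurrence arose was not tested.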
